A study of Sus scrofa with 599 samples.

Results

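Visceral and subcutaneous adipose tissues (ATs) of adult female Bama pigs were compared after weight gain. Retroperitoneal adipose (RAD) is a visceral AT behind the peritoneum, and the upper layer of backfat (ULB) is a subcutaneous AT. All RAD and ULB samples of the weight-gain group (WG, fed a high-fat diet) whose columns match a deposited label were taken, which gave 77 of 236 RNA-seq samples (39 of RAD and 38 of ULB) and 79 of 240 Hi-C samples (40 of RAD and 39 of ULB). The same contrast was read in pigs on a normal diet (NC, 12 RAD and 5 ULB libraries) and in pigs put on caloric restriction after the high-fat diet (WL, 10 and 10 libraries). The labels name no agent or transgene for any group. The paper collected both ATs from each carcass, so RAD and ULB samples share pigs. Samples that carry the same number were not stated to come from 1 pig, and 33 numbers occurred in both ATs.

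Fat depots keep an anatomical identity that is set in development and read out by transcription factors such as the HOX, ZIC and IRX genes. WT1 marks the mesothelium and the visceral fat progenitors that derive from it. Adipocytes of every depot make and store triglyceride, release fatty acids by lipolysis, and lie in a collagen matrix made mainly by stromal cells.

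RNA was depleted of ribosomal RNA, and abundances are given as TPM, transcript levels scaled for gene length and for the total of each library. The libraries held 10179169 to 22426788 estimated counts on protein-coding genes (PCGs) in RAD and 13228217 to 22303106 in ULB. All 8 adipocyte markers were expressed in both ATs, with a summed TPM of 15022 to 33092 in RAD (median 23015) and 10133 to 32896 in ULB (median 16451). Some libraries stood apart. ULB replicate 7 carried WT1 at 23.8 TPM and the mesothelial gene BNC1 at 2.41 TPM, against at most 0.74 and 0.12 TPM in the other ULB libraries. ULB replicates 20 and 22 lacked most IRX1 (0.29 and 0.26 TPM, at least 5.93 TPM in the others). They also lay between the ATs over the genes called different below. With the ULB mean at 0 and the RAD mean at 1, they were at 0.457 and 0.406. The other ULB libraries were at -0.246 to 0.193. Their summed mesothelial marker TPM (115 and 132) was the highest in ULB. RAD replicates 15, 26, 35 and 5 had the highest summed TPM of 7 skeletal muscle genes (121, 89.6, 43.5 and 39.98, with medians of 5.36 in RAD and 6.22 in ULB). Of the 4 tested erythroid genes (AHSP, ALAS2, HBB and HBM), 4 were higher in RAD, and the summed blood TPM had a median of 2275 in RAD (463 to 6215) and 908 in ULB (60.8 to 6026). The part of these libraries and markers in the results was not tested, except that results were recomputed without the 7 libraries named.

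Of 13346 PCGs tested, 543 were differentially expressed genes (DEGs) higher in RAD (4.07%) and 694 were DEGs higher in ULB (5.2%), with an adjusted p below 0.05 (edgeR quasi-likelihood test, two-sided, Benjamini-Hochberg) and a fold change above 1.5. Without the limit on the fold change, 2251 genes were higher in RAD and 2382 in ULB. The median log2 fold change over all tested genes was -0.01. Fold changes below are log2 values of RAD over ULB with their standard errors (SE), so that positive values are higher in RAD. Without the 7 libraries the counts were 593 and 717. Each list below is to be set beside the 4.07% and 5.2% of all tested genes.

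Only 6 tested genes had every RAD library above every ULB library (0.045%), namely CBR2, PGR, HOXA9, HOXA10, ALX1 and FERMT1. The opposite held for 5 (0.0375%), which were ZIC1, THBS4, STMN2, KERA and an unnamed gene (ENSSSCG00000006725). CBR2, a carbonyl reductase, was at 2.49 TPM in the lowest RAD library, 13.4 in the median and 46.4 in the highest, and at 0, 0.258 and 2.21 TPM in ULB. Its log2 fold change was 5.65 ± 0.31 (adjusted p = 7.18e-27). CBR2 thus separated the ATs without overlap, as did PGR, the progesterone receptor, at 14.97, 30.6 and 61.3 TPM in RAD and 1.46, 2.92 and 7.46 TPM in ULB (3.29 ± 0.12). ALX1, a homeobox factor of the craniofacial mesenchyme, was at 2.12, 4.63 and 10.1 TPM in RAD and was listed at 0 in 31 of 38 ULB libraries, with a highest value of 0.149 TPM. FERMT1, an integrin activator of epithelia, was at 3.99, 8.10 and 15.7 TPM in RAD and 0.901, 2.03 and 3.47 TPM in ULB.

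Among the genes of ULB, ZIC1, a zinc finger factor of the dorsal neural tube and somites, was listed at 0 in 33 of 39 RAD libraries and reached 0.363 TPM there, whereas ULB libraries lay at 2.08, 7.92 and 47.6 TPM. The fitted log2 fold change of -8.84 ± 0.34 (adjusted p = 3.08e-37) rests on these near-absent RAD counts. THBS4, a matrix glycoprotein of tendon and muscle, was at 0.343, 0.965 and 2.95 TPM in RAD and 6.50, 26.97 and 72.1 TPM in ULB (-4.82 ± 0.19). STMN2, a microtubule regulator best known from neurons, was listed at 0 in 5 of 39 RAD libraries, with 0.205 TPM in the median and 2.25 in the highest, and lay at 2.28, 8.44 and 21.4 TPM in ULB (-4.73 ± 0.26). The values of both genes did not overlap. KERA, a small proteoglycan that binds collagen fibrils, was at 0.733, 2.77 and 9.84 TPM in RAD and 11.2, 39.8 and 106 TPM in ULB (-3.61 ± 0.21).

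**Figure D1:**
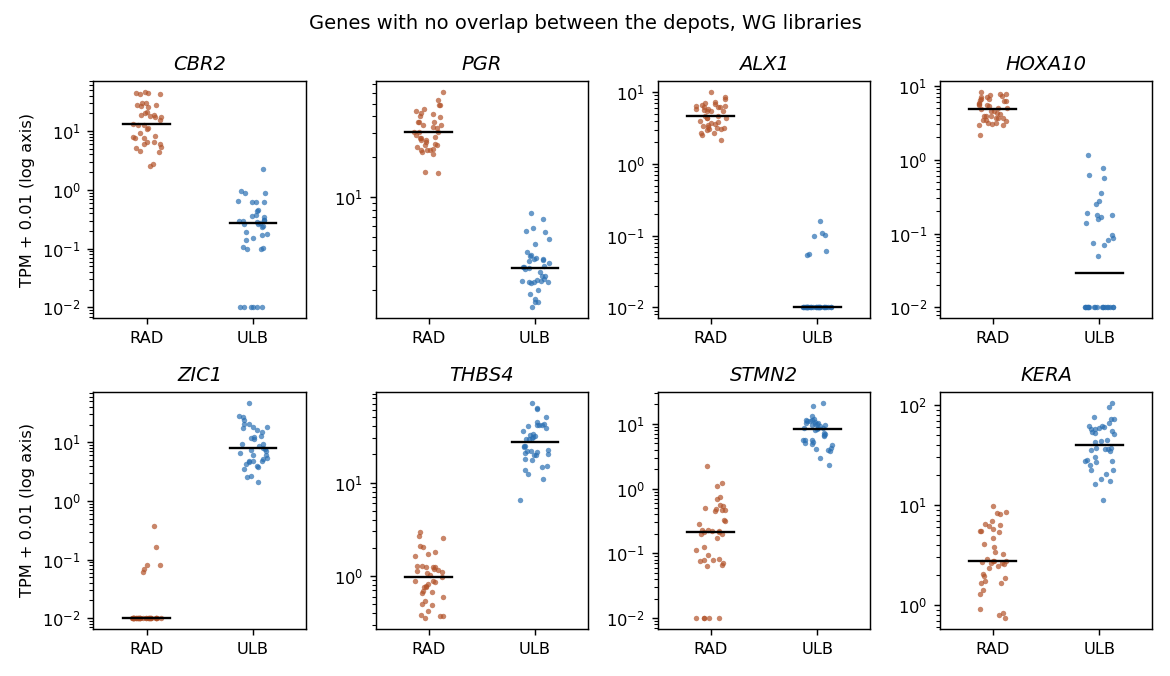
TPM of 8 genes in 39 RAD and 38 ULB libraries of WG pigs, on a log axis after adding 0.01 so that libraries listed at 0 can be drawn. Points are libraries and bars are medians. In each gene the lowest library of the higher AT lies above the highest library of the other AT.

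The 12 DEGs with the largest log2 fold change and a mean of at least 5 TPM in RAD also held WT1 (3.22 ± 0.41), HOXA9 (2.92 ± 0.17), LHFPL5 (2.66 ± 0.28), DDC (2.25 ± 0.30), the aromatic amino acid decarboxylase, and BTC (2.20 ± 0.20), a ligand of the epidermal growth factor receptor. BTC was abundant, at 53.0, 150 and 366 TPM in RAD and 5.37, 32.7 and 136 TPM in ULB, and it was higher in RAD in 33 of 33 same-numbered pairs. PTX3, an acute-phase pentraxin (2.01 ± 0.33), NANOS1 (1.96 ± 0.36), WNT5B (1.96 ± 0.19) and CYP27A1, a mitochondrial sterol hydroxylase (1.92 ± 0.23), completed the group. CYP27A1 spread widely, from 14.3 to 375 TPM in RAD (median 108) and from 5.82 to 101 TPM in ULB (median 29.004).

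The 12 at the other end included NCAM2 (-3.53 ± 0.27), the endopeptidase MME (-3.17 ± 0.26), FAM180B (-3.15 ± 0.23), CYP2A19 (-2.54 ± 0.35), POSTN (-2.50 ± 0.26) and CRABP2 (-2.46 ± 0.24), which carries retinoic acid in the cell. POSTN, a matrix protein made by fibroblasts, was at 7.36, 76.4 and 556 TPM in RAD and 214, 519 and 1657 TPM in ULB. CYP2A19 has close paralogues, between which estimated counts can be split, so its value is uncertain. ZNF599 was also in the group (-3.30 ± 0.48), but its medians were 2.41 TPM in RAD and 2.63 TPM in ULB. A few ULB libraries were high, with 454, 237, 46.3 and 25.5 TPM in replicates 23, 2, 21 and 41, while RAD reached 3.54 TPM. With the number as a block its log2 fold change was -0.34 (adjusted p = 0.198, edgeR). Of the 8 tested nerve markers, 3 were DEGs, and CDH19 was higher in RAD (0.60), a call that was lost with the number as a block.

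The factors that pattern fat along the body were split between the ATs. Of 10 tested factors known from subcutaneous fat and its dorsal mesoderm, 5 were higher in ULB (EN1, IRX3, IRX5, SHOX2 and ZIC1) and 1 in RAD (ALX1), with a median log2 fold change of -0.69. EN1, which marks the dermomyotome, was at 1.87, 3.95 and 8.25 TPM in RAD and 3.67, 12.8 and 23.9 TPM in ULB (-1.65 ± 0.10), and was higher in ULB in 33 of 33 pairs. IRX5 was at 0, 0.660 and 3.06 TPM in RAD and 1.12, 3.76 and 7.59 TPM in ULB (-2.27 ± 0.23). IRX3, its neighbour in the IRXB cluster, had a log2 fold change of -1.10 ± 0.24, and its RAD libraries reached 26.2 TPM. MEOX1 (0.15, adjusted p = 0.366, edgeR), MEOX2 (0.46), HOXC8 and HOXC9 were not DEGs.

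Of 8 tested factors of the visceral lineage, 4 were higher in RAD (GATA6, OSR2, TBX18 and WT1), 1 was higher in ULB (EMX2), and the median log2 fold change was 0.54. WT1 was at 2.46, 7.21 and 17.6 TPM in RAD and at 0, 0.154 and 23.8 TPM in ULB, the highest being ULB replicate 7. Without that library its log2 fold change was 5.198, and with the number as a block 5.11. TBX18, a T-box factor of mesothelial and mural progenitors, was at 7.38, 14.2 and 24.9 TPM in RAD and 2.92, 6.73 and 13.05 TPM in ULB (1.03 ± 0.09), with 33 of 33 pairs higher in RAD. GATA6 (0.68 ± 0.13) and OSR2 (1.18 ± 0.26) overlapped more between the ATs. EMX2, a factor of the urogenital ridge, was at a median of 3.59 TPM in RAD and 6.23 TPM in ULB (-1.01 ± 0.20). NR2F1 and NR2F2 had log2 fold changes of 0.01 and -0.24 (adjusted p = 0.973 and 0.431, edgeR).

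The 4 HOX clusters, which code for position along the body axis, differed in direction. HOXA had 2 members higher in RAD of 6 tested and HOXB 2 of 5, with 0 higher in ULB in either. HOXC had 2 members higher in ULB of 5 tested and HOXD 3 of 5, with 0 higher in RAD. Within HOXA the difference lay at HOXA9 and HOXA10. HOXA10 was at 2.12, 4.85 and 8.27 TPM in RAD and was listed at 0 in 19 of 38 ULB libraries, with a highest value of 1.15 TPM (5.09 ± 0.29). HOXA9 was at 6.47, 12.1 and 20.1 TPM in RAD and 0.169, 1.23 and 5.32 TPM in ULB. HOXA3 (0.18), HOXA5 (0.51) and HOXA7 (-0.39) were not DEGs. In HOXD the log2 fold change fell along the cluster from HOXD3 (0.38) and HOXD4 (0.39) through HOXD8 (-0.69 ± 0.10) and HOXD9 (-1.08 ± 0.12) to HOXD10 (-2.24 ± 0.31). HOXD8 was the most abundant HOX gene named, at 23.1, 51.6 and 79.6 TPM in RAD and 46.007, 81.6 and 118 TPM in ULB. HOXB6 (0.90) and HOXB7 (0.70) were higher in RAD, and HOXC4 (-0.87) and HOXC5 (-0.72) in ULB.

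**Figure D2:**
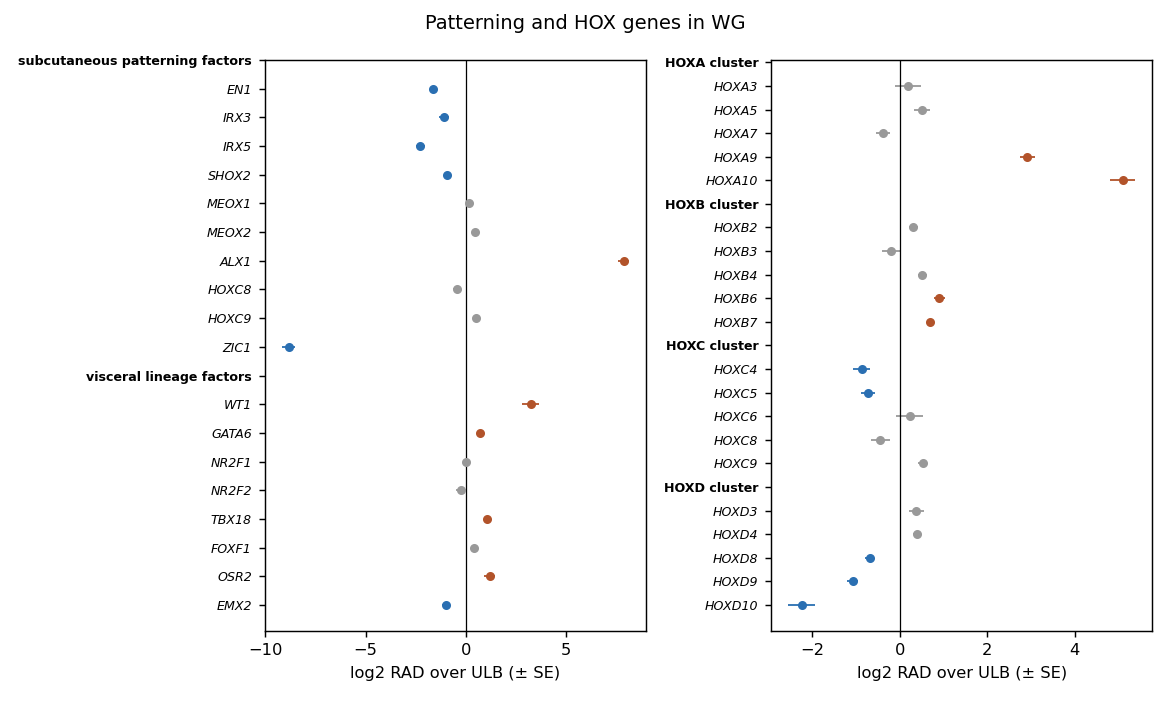
Log2 fold changes of RAD over ULB with SE for patterning factors, visceral factors and HOX genes of WG pigs. Orange marks DEGs higher in RAD, blue DEGs higher in ULB and grey genes that were not DEGs. ZIC1 (-8.84) and ALX1 (7.86) lie at the ends of the first panel, and HOXA10 (5.09) and HOXD10 (-2.24) at the ends of the second.

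Of 19 genes of adipocyte identity and the lipid droplet, 4 were higher in RAD (CIDEC, HILPDA, PLIN4 and PLIN5), which is 21.1% against 4.07% of all tested genes, and 0 in ULB. Their log2 fold changes had a median of 0.33. Without the limit on the fold change 11 were higher in RAD, and with the number as a block 6 passed both limits. All 4 coat the droplet or bind to it. PLIN4 was at 343, 1110 and 3305 TPM in RAD and 172, 459 and 1501 TPM in ULB (1.14 ± 0.16) and was higher in RAD in 33 of 33 pairs. HILPDA, an inhibitor of the lipase PNPLA2, was at a median of 116 TPM in RAD and 29.3 TPM in ULB (1.55 ± 0.28). Leptin (LEP) had a log2 fold change of -0.07 (adjusted p = 0.692, edgeR), and PPARG of 0.22 (adjusted p = 0.12, edgeR). In bulk tissue, fewer cells of a type and less RNA per cell cannot be told apart, and the summed adipocyte markers given above were also higher in the median of RAD.

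Genes of lipolysis and of fatty acid uptake had 5 of 15 and 4 of 12 tested members higher in RAD, against 1 and 0 higher in ULB, with median log2 fold changes of 0.30 and 0.39. Each list thus had 33.3% higher in RAD, against 4.07% of all tested genes. In ULB 6.67% and 0% were higher, against 5.2%. Both lists hold members of opposite function, so the counts give no direction of lipolysis or uptake. ADRB1, a beta-adrenergic receptor, was at 1.88, 6.66 and 18.5 TPM in RAD and 0.685, 1.96 and 10.3 TPM in ULB (1.65 ± 0.21). ADRA2A, the alpha-2A receptor that restrains lipolysis, was the member higher in ULB (-0.71 ± 0.21). MGLL, which cleaves the last fatty acid from monoacylglycerol, was at 139, 270 and 431 TPM in RAD and 66.7, 150 and 198 TPM in ULB (0.84 ± 0.09). LIPE, the hormone-sensitive lipase, was higher in RAD by 0.62 ± 0.11. The receptors NPR3 (1.33 ± 0.16), which clears natriuretic peptides, and PTGER3 (0.78 ± 0.17), which lowers cyclic AMP, were higher in RAD too. ANGPTL4, an inhibitor of lipoprotein lipase (0.75 ± 0.19), ACSL4 (0.63 ± 0.14) and SLC27A4 (0.59 ± 0.10) were among the uptake genes, of which SLC27A4 lay just under the fold limit without ULB replicate 7 (0.58).

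Several genes of lipid synthesis were higher in ULB. Of 16 tested lipogenic genes, SCD and SREBF1 were higher in ULB and 0 were higher in RAD (median -0.27), and of 17 genes of cholesterol synthesis and its control, 4 were higher in ULB (among them IDI1, LSS and SC5D) and 1 in RAD, with a median of -0.22. SCD, which desaturates stearic acid, was at 266, 2647 and 13532 TPM in RAD and 3706, 8821 and 21170 TPM in ULB (-1.61 ± 0.21). SREBF1, the factor that drives lipogenic genes, was at a median of 15.98 TPM in RAD and 39.1 TPM in ULB (-1.06 ± 0.24). FASN (-0.06, adjusted p = 0.887, edgeR) and ACACA (0.20, adjusted p = 0.213, edgeR) were not DEGs, and ACLY was not (-0.50) but passed on the shared numbers (the 33 found in both ATs) without a block (-0.59) and with it (-0.72, adjusted p = 0.000391, edgeR). PCK1, which feeds glycerol synthesis, was the DEG among 11 genes of triglyceride synthesis and was higher in RAD (1.46 ± 0.25). Of 18 tested genes of fatty acid oxidation, CPT1A was higher in RAD (0.71 ± 0.12) and the peroxisomal EHHADH in ULB (-0.60 ± 0.13). Each is 5.56% of the list, near the 4.07% and 5.2% of all tested genes, and the median was 0.03. EHHADH fell under the fold limit on the shared numbers without a block (-0.57) and with it (-0.52).

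Of 14 fibrillar and type VI collagens, 9 were higher in ULB and 0 in RAD, with a median log2 fold change of -0.79. With the number as a block 8 were, and COL6A5 (-0.61) fell under the fold limit (-0.53). The summed TPM of the 14 was 2984 to 12293 in RAD (median 5429) and 6363 to 22073 in ULB (median 11431). COL3A1 was at 958, 2834 and 6692 TPM in RAD and 3397, 5925 and 13105 TPM in ULB (-1.12 ± 0.12). COL12A1, which links fibrils, was at 21.3, 48.7 and 117 TPM in RAD and 67.2, 154 and 275 TPM in ULB (-1.47 ± 0.11), and both were higher in ULB in 33 of 33 pairs. COL1A1 had the widest spread, from 36.9 to 2076 TPM in RAD and from 74.8 to 4559 TPM in ULB (-1.04 ± 0.34, adjusted p = 0.0109, edgeR). COL14A1 (0.47), COL5A2 (-0.10), COL5A3 (-0.28), COL6A6 (-0.20) and COL11A1 (-0.52) were not DEGs. Basement membrane genes, in contrast, had 1 DEG of 12 (COL18A1, -0.71 ± 0.12). MMP2, a gelatinase (-1.17 ± 0.18), LOX, which crosslinks collagen (-0.75 ± 0.11), and MMP12 (-1.13) were higher in ULB, whereas the proteoglycan-cleaving ADAMTS1 (0.73), ADAMTS4 (0.90) and ADAMTS5 (0.63, and 0.56 on the shared numbers without a block) and MMP19 (0.81) were higher in RAD.

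Since these collagens moved together, the 250 bases before the start of the 4 that hold a CCAAT box are printed, read on the gene's strand from Sscrofa11.1 with RefSeq starts. They are COL1A1 (chr12:26397181-26397430, minus strand), COL1A2 (chr9:74174234-74174483, plus strand), COL6A3 (chr15:137103688-137103937, minus strand) and COL6A5 (chr13:2174405-2174654, minus strand). Capitals mark CCAAT or TATAAA on either strand.
COL1A1: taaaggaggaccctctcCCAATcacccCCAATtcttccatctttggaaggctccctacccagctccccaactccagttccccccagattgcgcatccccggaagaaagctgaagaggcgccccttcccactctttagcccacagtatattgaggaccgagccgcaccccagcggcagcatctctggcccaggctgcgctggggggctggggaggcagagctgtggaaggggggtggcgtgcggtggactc
COL1A2: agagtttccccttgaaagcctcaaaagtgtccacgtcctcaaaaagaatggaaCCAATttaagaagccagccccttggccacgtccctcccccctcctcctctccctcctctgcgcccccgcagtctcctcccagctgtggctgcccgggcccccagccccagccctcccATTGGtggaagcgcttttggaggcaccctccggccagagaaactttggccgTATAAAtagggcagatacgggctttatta
COL6A3: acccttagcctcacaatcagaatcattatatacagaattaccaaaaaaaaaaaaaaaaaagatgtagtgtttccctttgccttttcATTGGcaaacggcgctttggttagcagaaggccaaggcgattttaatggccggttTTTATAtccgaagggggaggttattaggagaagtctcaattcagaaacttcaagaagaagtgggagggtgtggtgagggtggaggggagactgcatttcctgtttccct
COL6A5: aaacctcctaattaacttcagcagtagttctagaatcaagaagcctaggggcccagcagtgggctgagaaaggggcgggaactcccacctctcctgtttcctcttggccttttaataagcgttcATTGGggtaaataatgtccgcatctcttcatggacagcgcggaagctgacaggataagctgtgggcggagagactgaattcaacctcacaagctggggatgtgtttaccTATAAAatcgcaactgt
Of the 7 collagens higher in ULB with a placed start, 4 held CCAAT and 3 held TATAAA, and of the 5 placed collagens that were not DEGs, 2 and 0. Over the promoters of 10620 tested genes, 32.7% held CCAAT and 7.01% held TATAAA. COL1A1 and COL1A2 hold CCAAT at 2 places each, TATAAA lies in COL1A2, COL6A3 and COL6A5, and COL1A1 holds none.

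**Figure D3:**
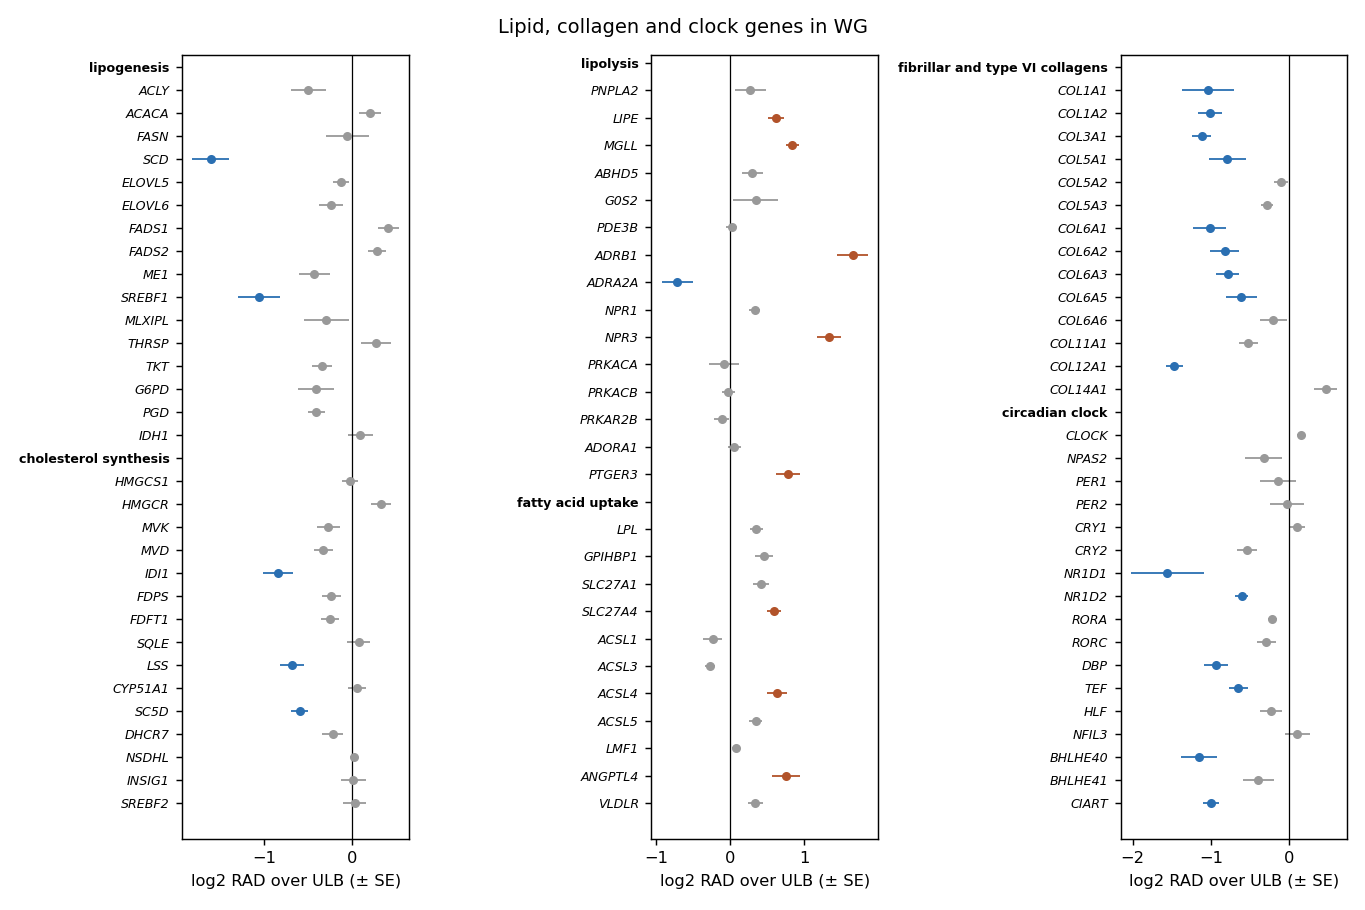
Log2 fold changes of RAD over ULB with SE for genes of lipogenesis, cholesterol synthesis, lipolysis, fatty acid uptake, collagens and the clock in WG pigs. Orange marks DEGs higher in RAD, blue DEGs higher in ULB and grey genes that were not DEGs. The 9 blue collagens and 6 blue clock genes have no orange member beside them.

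Secreted signals differed in both directions. In the WNT pathway, 5 of 15 genes were higher in RAD (DKK3, SFRP2, WNT10B, WNT2B and WNT5B) and 3 in ULB (FRZB, RSPO3 and SFRP4). DKK3 was at 7.41, 19.8 and 49.1 TPM in RAD and 2.80, 7.54 and 16.6 TPM in ULB (1.43 ± 0.13), and SFRP4, a secreted WNT antagonist, was at 9.08, 43.04 and 180 TPM in RAD and 63.5, 139 and 292 TPM in ULB (-1.60 ± 0.17). Both held in 33 of 33 pairs. IGFBP5, which binds insulin-like growth factors, was at 30.8, 95.1 and 446 TPM in RAD and 67.2, 447 and 1141 TPM in ULB (-2.12 ± 0.19), IGF1 itself was higher in ULB (-0.63 ± 0.11), and the protease genes PAPPA (1.04) and PAPPA2 (-0.87) went opposite ways. FGF10, an adipogenic growth factor, was at 2.52, 9.79 and 27.4 TPM in RAD and 11.8, 36.7 and 114 TPM in ULB (-1.72 ± 0.18), and its receptor gene FGFR2 was at a median of 3.27 TPM in RAD and 14.4 TPM in ULB (-2.12 ± 0.16). FGF1 (1.17 ± 0.21) and FGFR4 (1.02) were higher in RAD.

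Of 19 genes of BMP, GDF and TGF-beta signalling, ACVR1C (1.37 ± 0.19), a receptor, INHBB (0.91 ± 0.16), an activin subunit, and BMP7 (3.35 ± 0.30) were higher in RAD, and TGFB2 (-0.98 ± 0.12) was higher in ULB. GREM1, a BMP antagonist, did not pass (0.87, adjusted p = 0.0547, edgeR), but did with the number as a block (1.89, adjusted p = 9.08e-07, edgeR), on the shared numbers without it (1.09), with DESeq2 (0.87) and without ULB replicate 7 (1.21). Among 15 tested adipokines, NTN1 (1.46 ± 0.12), RBP4 (1.04 ± 0.13) and RARRES2 (0.85 ± 0.12) were among those higher in RAD, and APLN (-0.79) and CCL2 (-0.85 ± 0.20) in ULB. NTN1, an axon guidance factor, was at 13.4, 36.3 and 78.8 TPM in RAD and 6.15, 13.1 and 39.013 TPM in ULB. RARRES2, the precursor of chemerin, was at 182, 315 and 610 TPM in RAD and 67.0, 165 and 366 TPM in ULB. ADIPOQ was not a DEG (0.33).

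Stromal, vascular and immune lists differed in their share of DEGs, which over all tested genes was 4.07% in RAD and 5.2% in ULB. PI16, a marker of fibroblastic progenitors (1.55 ± 0.17), EBF2 (0.66 ± 0.07) and DACT2 (0.70) were the 3 DEGs of 15 progenitor genes, all higher in RAD, while PDGFRB was not a DEG (-0.56) and passed on the shared numbers without a block (-0.61) and with it (-0.62, adjusted p = 3.43e-09, edgeR). Endothelial genes had 1 DEG of 18, the angiopoietin receptor TEK (0.84 ± 0.09), at 41.4, 72.3 and 142 TPM in RAD and 29.2, 38.6 and 77.8 TPM in ULB. That is 5.56% of the list, near the 4.07% of all tested genes. Smooth muscle genes had 6 DEGs of 12: SYNPO2 (1.22 ± 0.11), TAGLN (0.72), LMOD1 (0.67) and SMTN (0.66) were higher in RAD, and ACTG2 (-2.22 ± 0.29) and DES (-2.17 ± 0.22) in ULB.

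Of 19 macrophage genes, CD163, the haemoglobin scavenger receptor, was higher in RAD (0.75 ± 0.18), beside the erythroid genes given above, and CD9 (-0.59) and SIGLEC1 (-0.88) were higher in ULB. SPP1 was not a DEG (0.53), but passed with the number as a block (0.63, adjusted p = 0.00625, edgeR). Chemokines and their receptors had 4 of 23 higher in ULB (CCL2, CCL26, CCL8 and CXCL14) and 1 in RAD (CXCL2, 0.72), which fell under the fold limit on the shared numbers both without a block (0.56) and with it (0.55). CCL26 (-0.65) did not pass without the 7 libraries (-0.64, adjusted p = 0.0548, edgeR) or on the shared numbers without a block (-0.56, adjusted p = 0.107, edgeR). CXCL14 was at 10.3, 17.02 and 39.5 TPM in RAD and 13.9, 37.3 and 63.6 TPM in ULB (-0.96 ± 0.11). T and NK cell genes had 1 DEG of 17 (IL7R, 0.64), and B and plasma cell genes 1 of 6 (JCHAIN, -0.90). Complement had 6 DEGs of 12, with C7 (1.31 ± 0.24), C9 (1.04) and CFI (0.60) higher in RAD and C4A (-0.97), C5 (-0.98) and MASP1 (-0.97) in ULB, where C9 did not keep the fold with the block (0.48), CFI did not on the shared numbers without a block (0.57) and C4A may share counts with a close copy. Interferon-stimulated genes had MX2 higher in RAD (0.83) and ISG15 in ULB (-0.70), of 20, which is 5% each. That is near the 4.07% in RAD and 5.2% in ULB of all tested genes. Shares higher in RAD were also near 4.07% for macrophage (5.26%), T and NK cell (5.88%) and chemokine genes (4.35%).

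Mesothelial genes did not move together. ALDH1A2 was higher in RAD (1.44 ± 0.19), at 11.7, 22.7 and 41.96 TPM against 1.76, 6.56 and 56.3 TPM in ULB, with ULB replicate 7 the highest. KRT8 was higher in ULB (-1.23 ± 0.27). GPM6A passed as higher in ULB (-0.83), but not without ULB replicate 7 (-0.17, adjusted p = 0.623, edgeR), without the 7 libraries (-0.26) or with DESeq2 (-0.17, adjusted p = 0.611). KRT18 ranged from 0 to 174 TPM in RAD and from 0.213 to 128 TPM in ULB, and its log2 fold change of -0.18 (adjusted p = 0.836, edgeR) turned to 0.71 without the 7 libraries. Of the 5 mesothelial markers with an identifier, CALB2 and BNC1 had a median of 0 TPM in both ATs, and the summed TPM of the markers was 0.386 to 180 in RAD and 1.23 to 132 in ULB.

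Among 17 genes of the circadian clock, 6 were higher in ULB and 0 in RAD, with a median of -0.33. They were NR1D1 (-1.56 ± 0.46), BHLHE40 (-1.16 ± 0.23), CIART (-0.997 ± 0.10), DBP (-0.94 ± 0.16), TEF (-0.65) and NR1D2 (-0.61), of which the NR1D genes, BHLHE40 and CIART are repressors within the clock and DBP and TEF are output factors. CIART was at 3.59, 8.46 and 16.2 TPM in RAD and 9.79, 16.5 and 33.3 TPM in ULB and held in 33 of 33 pairs, whereas NR1D1 spread from 0.112 to 24.3 TPM in RAD and from 0.174 to 72.3 TPM in ULB. CLOCK itself (0.15), PER1 (-0.14) and NFIL3 (0.10) were not DEGs. Sampling times are not given in the labels. Of 14 steroid genes, PGR was higher in RAD, and the receptor gene ESR1 was among those higher in ULB (-0.69 ± 0.11). Glucose transport and insulin genes had SLC2A5, the fructose transporter (-1.64 ± 0.27), and GRB14 (-0.69) higher in ULB and 0 higher in RAD, of 18.

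Thermogenic genes had EBF2 and TMEM26 (1.299) higher in RAD, and RYR2 (-0.80) and ZIC1 higher in ULB, of 14. Immediate early genes had KLF2 (0.61) higher in RAD, which is 5.56% of 18 and near the 4.07% of all genes, and KLF2 fell under the fold limit on the shared numbers without a block (0.56). FOS was not a DEG (0.51). NUSAP1, a spindle protein, was the DEG among 17 proliferation genes and was higher in ULB in 33 of 33 pairs (-0.73 ± 0.09). That is 5.88% of the list, near the 5.2% of all tested genes. Of 12 mitochondria-encoded genes, ND3 was higher in ULB (-1.17 ± 0.42). With the number as a block 4 were, among them ND2 (-0.82) and CYTB (-0.73).

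The Hi-C data give the A-B index of 113298 bins of 20 kb, whose sign assigns a bin to the active compartment A or the inactive compartment B. Compartment A held 45.97% to 50.1% of the bins in RAD samples and 45.3% to 50.4% in ULB samples. The index was higher in RAD in 23418 bins (20.7%) and higher in ULB in 42589 bins (37.6%) at an adjusted p below 0.05 (limma, two-sided). The median difference of RAD minus ULB over all bins was -0.098, and after quantile normalization between samples it was 0.00703. A/B switches, with over 80% of the samples of the ATs in opposite compartments, numbered 13 with A in RAD (0.0115%) and 32 with A in ULB (0.0282%). A/B variables, which keep their compartment but differ by more than 0.75, numbered 2201 higher in RAD (1.94%) and 9003 higher in ULB (7.95%), so that 19.6% were higher in RAD. After quantile normalization 44.5% were (2225 and 2775 bins).

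The 45 switched bins lay on 11 chromosomes, with 11 bins on chromosome 8, all of them A in ULB, and 6 of the 13 bins with A in RAD on chromosome 5. The size of the difference was 0.697 to 1.37. In NC pigs 45 of the 45 had a mean difference of the same sign, and in WL pigs 41 of the 45. Those that turned in WL were on chromosome 8 (starting at 88440001, 97380001 and 97820001, with differences of 0.41, 0.13 and 0.25) and on chromosome 17 (starting at 61240001, -0.06). Neighbouring bins were counted singly, and the share of all bins that kept their sign was not computed. MSX2, a homeobox gene of mesenchyme, is the DEG that starts in a switched bin (chr16:49760001-49780000). Its index was -1.20, -0.541 and 0.360 in RAD, above 0 in 4 of 40 samples, and -0.445, 0.378 and 1.41 in ULB, above 0 in 32 of 39. Its expression was at 0.144, 1.24 and 5.22 TPM in RAD and 0.811, 3.46 and 15.2 TPM in ULB (-1.67 ± 0.21, adjusted p = 1.01e-09, edgeR).

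Of 175 named genes whose start lies in a bin with an index, 58 were lower in RAD (33.1%) and 34 higher in RAD (19.4%) at an adjusted p below 0.05. These shares lie near the 37.6% and 20.7% of all bins, but not near those of other gene starts. Among start bins of 9298 genes that were not DEGs, 16.4% were lower in RAD and 32.97% higher. After quantile normalization these were 25.9% and 23.7%. ZIC1 (chr13:87740001-87760000) had an index of -2.44 ± 0.365 in RAD (SD, n = 40) and -0.763 ± 0.543 in ULB (SD, n = 39), a difference of -1.68 ± 0.10 (SE, adjusted p = 1.7e-23, limma), and was above 0 in 0 of 40 and 2 of 39 samples. The bin of ZIC1 thus stayed in compartment B in most Hi-C samples of ULB, the AT whose RNA held the gene. For Hi-C, the paper lysed the upper, adipocyte-containing layer of the tissue, and it describes no such step for RNA. The index and the TPM may thus be of different cells, which was not tested. FGF10 (chr16:28760001-28780000) was in B in all 79 samples, at -2.60 ± 0.423 and -1.04 ± 0.463. POSTN (chr11:13240001-13260000) was at -1.07 ± 0.638 in RAD and 0.298 ± 0.646 in ULB, and was above 0 in 2 of 40 and 25 of 39 samples. KERA (-1.24 and 0.0151), IRX5 (-0.885 and 0.131) and FGFR2 (-0.608 and 0.161) had the same direction.

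WT1 (chr2:28400001-28420000) went the other way, at -0.257 ± 0.639 in RAD and -1.05 ± 0.486 in ULB, and was above 0 in 11 of 40 RAD samples and 0 of 39 ULB samples. DDC (2.14 and 1.15), NANOS1 (4.58 and 3.76) and RARRES2 (3.70 and 3.14), all higher in RAD in expression, also had a higher index there. Large differences in expression came with small ones in the index in other genes. HOXA10 was at 2.29 and 1.92, and PGR was in B in both ATs, at -3.71 and -3.62 (adjusted p = 0.484, limma), a difference of -0.09 that was 0.35 after quantile normalization. ALX1 was at -4.53 and -4.78 (adjusted p = 0.212, limma), and CBR2 was lower in RAD, at 4.86 against 5.32. COL1A1 lay in A in all samples, at 3.51 ± 0.45 in RAD and 4.17 ± 0.551 in ULB. Over the genes with a placed start, 37.1% of the start bins of DEGs higher in ULB had a higher index in ULB and 14.8% a higher index in RAD (542 genes), while the shares were 20.0% and 34.7% for DEGs higher in RAD (429 genes) and 16.4% and 32.97% for the other 9298 genes. After quantile normalization the shares were 41.7% and 10.52% for DEGs higher in ULB, 23.1% and 29.8% for DEGs higher in RAD, and 25.9% and 23.7% for the other genes, whose order thus turned.

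**Figure D4:**
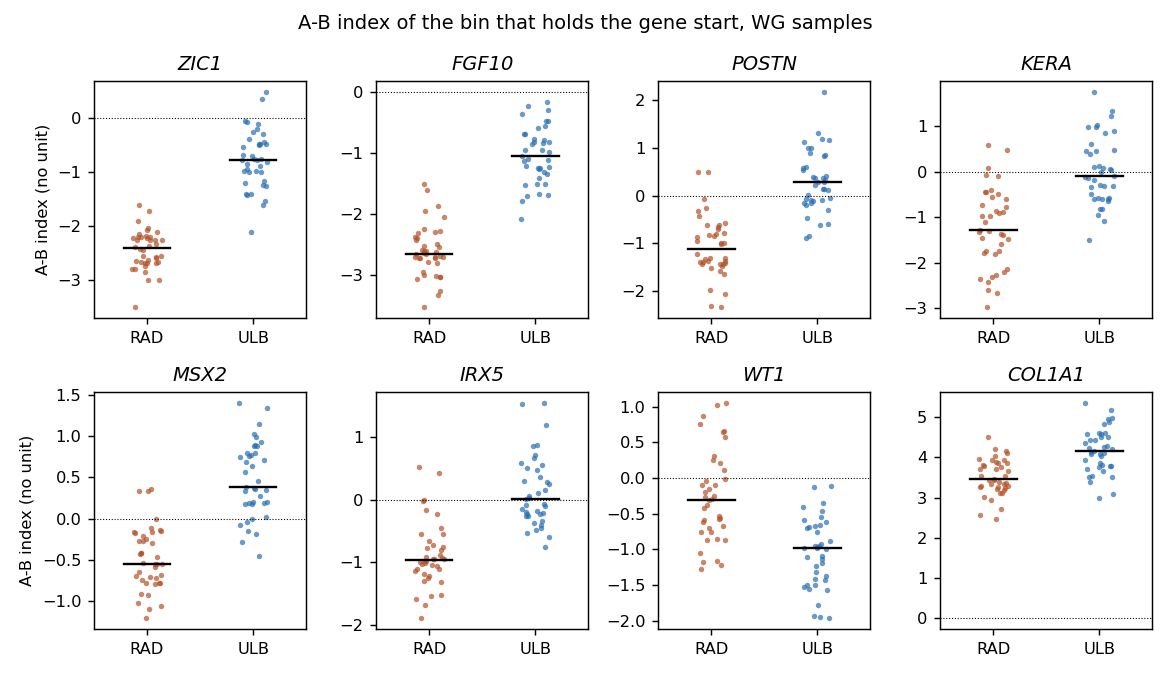
A-B index of the 20-kb bin that holds the start of 8 genes, in 40 RAD and 39 ULB Hi-C samples of WG pigs. Points are samples, bars are medians, and the dotted line at 0 divides compartment A (above) from B (below). WT1 is the gene with the higher median in RAD, and COL1A1 is above 0 throughout.

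H3K27ac marks active enhancers, and the authors' tables give regions for pools of WG samples named group 5 and group 6, with no replicates. The pools held 18143 regions in RAD and 19753 in ULB of group 5 (11 and 4 samples), and 25206 and 19395 in group 6 (1 and 6 samples), and a region was assigned to a gene within 10 kb. A region called a super-enhancer lay within 10 kb of HOXA9 and HOXA10 in both RAD pools (ranks 432 and 714 by signal) and in neither ULB pool. In RAD of group 5 that region (rank 432) was also assigned to HOXA3, HOXA5 and HOXA7, which were not DEGs. A plain region lay by HOXA9 in ULB of group 6 (rank 1431), with a signal of 15142 against 13723 for the super-enhancer in RAD of group 6, and by HOXA10 in ULB of group 5 (rank 18962). PGR and ALX1 had a region in both RAD pools and in neither ULB pool, with low ranks (18064 and 24193 for PGR). HOXD8, HOXD9 and HOXD10 lay by a super-enhancer in the ULB pool of group 6 (rank 699), by a plain region in ULB of group 5 and RAD of group 6, and by none in RAD of group 5. FGF10 had 3 regions in the ULB pool of group 6 and 0 in the other pools, while KERA had 3 and 1 in the ULB pools of groups 6 and 5 and 0 in both RAD pools. COL1A1 lay by a super-enhancer in RAD of group 5 (rank 189) and in ULB of group 6 (rank 45), and by plain regions in the other pools. STMN2 had 1 region, in RAD of group 5, the AT in which it was lower. These are counts of pools, and no test was made.

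The depot difference was compared with that of pigs on the other diets, which share no samples with WG. In WL pigs, 282 genes were DEGs higher in RAD (2.05% of 13750) and 315 higher in ULB (2.29%). Of the DEGs of WG, 175 of the 543 were also higher in RAD in WL (32.2% of the WG list and 62.1% of the WL list), and 229 of the 694 higher in ULB (32.997% and 72.7%). In NC pigs, 192 were higher in RAD (1.4% of 13749) and 402 in ULB (2.92%), and 120 and 204 of the WG DEGs were among them (22.1% and 29.4% of the WG lists, 62.5% and 50.7% of the NC lists). Shares of the WG lists include genes not tested in the other group. Of the 543 and 694, 528 and 656 were tested in WL, and 512 and 658 in NC. WL and NC hold fewer libraries than WG, and the part of this in the lower counts was not tested. Of the 12 genes with the largest fold change in RAD, 11 were DEGs in WL (all but PTX3) and 8 in NC (all but DDC, PTX3, NANOS1 and CYP27A1), and of the 12 of ULB, 10 in WL (all but ZNF599 and CYP2A19) and 11 in NC (all but CYP2A19). The sign was the same as in WG for 11 of the 12 at each end in WL, and for 12 of 12 at each end in NC. The log2 fold change of CBR2 was 5.65 in WG, 5.66 in WL and 5.62 in NC, and that of THBS4 -4.82, -4.84 and -5.48.

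The difference itself was tested as an interaction. The RAD over ULB ratio was higher in WG than in WL for 8 genes (0.0577% of 13870) and lower for 22 (0.159%), and higher in WG than in NC for 23 (0.164% of 13987) and lower for 10 (0.0715%). The 33 genes of the second test were 8 without NC ULB replicate 2 and 58 without NC ULB replicate 9. LIPG, the endothelial lipase, was at 1.55, 4.79 and 33.8 TPM in RAD and 2.39, 6.68 and 13.9 TPM in ULB of WG pigs, and at 3.95, 15.4 and 53.4 TPM in RAD and 1.09, 3.17 and 7.45 TPM in ULB of WL pigs. Its log2 fold change was -0.20 in WG and 2.45 in WL, a difference of -2.65 ± 0.43 (adjusted p = 0.000136, edgeR). ANGPT4, a ligand of TEK, was at a median of 4.43 TPM in RAD and 5.97 TPM in ULB of WG pigs and at 22.6 and 7.68 TPM in WL, so that its direction was opposite in the groups. NDRG4 was at a median of 12.52 and 9.69 TPM in WG and 69.1 and 13.2 TPM in WL. MYLIP, a ubiquitin ligase, was lower in RAD in WG (34.3 and 71.0 TPM, 33 of 33 pairs), and had medians of 47.4 and 47.2 TPM in WL.

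COL12A1 was lower in RAD in WG (-1.47) and in NC (-2.85), with medians of 48.7 and 154 TPM in WG and 23.3 and 193 TPM in NC. ATRNL1 was alike, at 6.67 and 12.0 TPM in WG and 4.06 and 20.97 TPM in NC. ADAMTS20 was at 2.49 TPM in RAD and 2.36 TPM in ULB in WG and at 7.48 and 2.24 TPM in NC. GLYATL2 rests on NC ULB, where it ranged from 0.0905 to 53.3 TPM in 5 libraries. Without NC ULB replicate 2 the difference between WG and NC did not pass for GLYATL2 (1.78, adjusted p = 0.306, edgeR) or ATRNL1 (1.15, adjusted p = 0.053, edgeR), and it passed for COL12A1 (1.42) and ADAMTS20 (-1.54). The DEG call of GLYATL2 in WG (-0.83) was lost with the number as a block (-0.54). For SCD (-1.61 in WG, -2.36 in WL and -2.34 in NC) and PLIN4 (1.14, 0.29 and 0.77) the interaction did not pass (adjusted p = 0.955 and 0.642 against WL, edgeR).

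**Figure D5:**
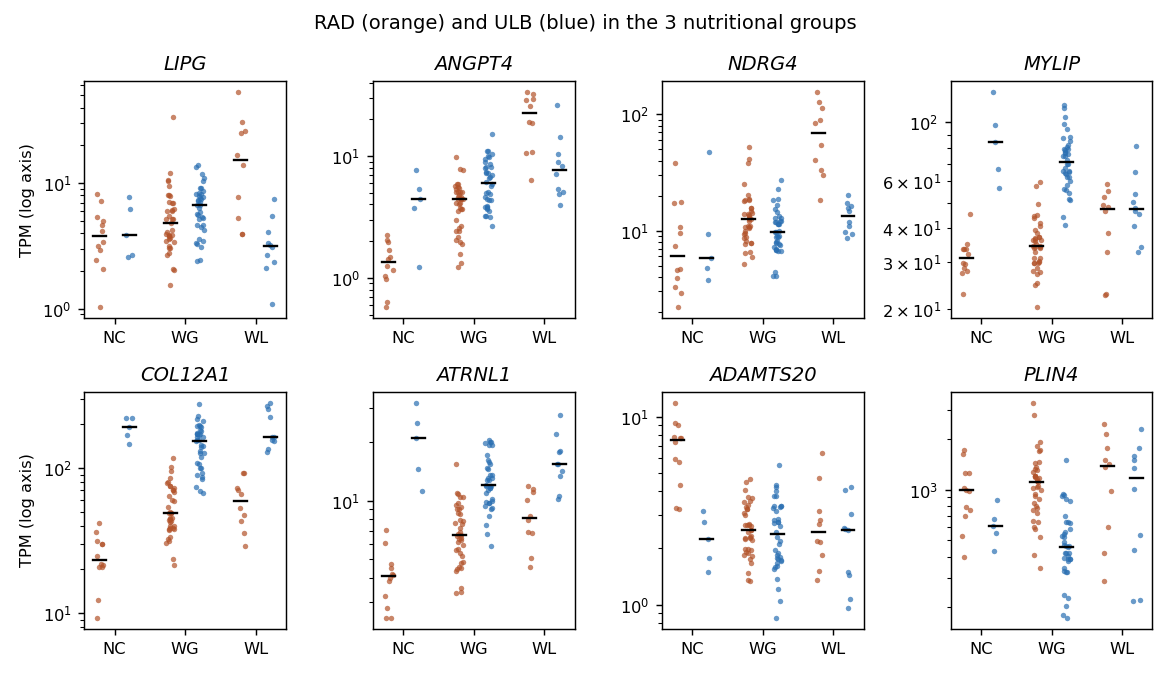
TPM on a log axis of 7 genes whose depot ratio differed between diets and of PLIN4, for which it did not pass, in NC (12 RAD and 5 ULB libraries), WG (39 and 38) and WL (10 and 10). Points are libraries and bars are medians, with RAD in orange and ULB in blue. In WL the RAD medians of LIPG, ANGPT4 and NDRG4 lie above those of ULB, and in NC the RAD median of ADAMTS20 does.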

How the data were processed

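Total RNA-seq and in situ Hi-C of RAD and ULB from WG pigs were taken from the deposited tables, with groups from the labels. The authors estimated transcript abundance with kallisto 0.43.0 and summed it by gene, so the deposited values are estimated counts, and 0 non-zero counts are whole (within 1e-09). They were rounded for the tests. The TPM values are those the authors deposited. The deposited A-B index is a score that the authors computed from their contact matrices, with no counts per bin. The authors' H3K27ac signal comes from pools (ROSE tables), and other fields of these tables, such as region positions, are as the authors deposited them. Each table holds 9 columns that match no label, which were not used.

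A PCG was tested where 80% or more of either depot's samples exceeded 0.5 TPM, with edgeR 4.0.16 (TMM, quasi-likelihood) in R 4.3.3, and bins with limma 3.58.1. On simulated counts of 13346 genes for this contrast, 50 of 50 genes changed 4-fold and 8 of 13146 unchanged genes were called. DESeq2 1.42.0, no filter on low genes, a fold change over 2, the replicate number as a block, quantile normalization of the index and left-out libraries were the alternatives. Expression of same-numbered samples correlated above 0.1 in 33 of 33 pairs after removal of the depot mean (lowest 0.102, median 0.602, other numbers -0.079). Of the 33 RAD libraries, 20 correlated best with the ULB library of their own number. The number served as a block only in an alternative. The main test, with its SE and adjusted p, held no block and treated same-numbered libraries as separate. It thus did not use that both ATs came from the same pigs. The Hi-C samples correlated above 0.1 in 18 of 34 pairs.

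Named genes were the 12 DEGs at each end with a symbol and a mean of at least 5 TPM, all patterning, visceral and HOX members that were DEGs or had at least 1 TPM, up to 4 members of each other list by fold change, DEGs in switched bins, and up to 4 genes per interaction test. Other genes were named after their values were seen, as called members of a list. Members and lists were chosen with earlier results of these data known. Where samples are not stated to be separate animals, p-values measure only the spread between samples. Python 3.11.15 with pandas 2.3.3 was used for tables. Some genes of these lists are not reported or drawn here.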

Additional observations from a re-analysis of the deposited data

Results flagged for a closer look

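The RAD over ULB log2 fold change of WG minus that of WL passed the interaction test of edgeR (adjusted p below 0.05) in 4 genes that were singled out by their adjusted p. It was -2.65 for LIPG, -1.92 for ANGPT4, -2.04 for NDRG4 and -0.86 for MYLIP. All 4 also passed when libraries with under 90% of TPM on PCGs were left out, with DESeq2, and with no filter on low genes. Against NC it was 1.38 for COL12A1, -1.65 for ADAMTS20, 3.31 for GLYATL2 and 1.38 for ATRNL1. Of these, COL12A1 did not pass without the libraries under 90% (1.44, adjusted p = 0.054, edgeR).

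One library lay far from the others of its group. The highest of the 10 ULB libraries of WL pigs held ANGPT4 at 26.2 TPM, against a median of 7.68 TPM. Such a gap arises by chance in about 1 of 20 groups, and 12 groups were examined.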

How the results depend on the processing

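With no filter on low genes 858 DEGs were higher in RAD and 1294 in ULB, and with a fold change over 2, 166 and 241. Under DESeq2, the replicate block, the shared numbers without a block and the left-out libraries the counts were 547 to 618 and 681 to 752. Under the replicate block (618 and 752) 175 of 186 named genes kept their direction and call. EHHADH and CXCL2 were lost and ACLY, PDGFRB and GREM1 gained already on the shared numbers without the block, where KLF2 was also lost. With the block alone ZNF599, C9 and GLYATL2 were lost and SPP1, ND2 and CYTB gained. Among the lists, the block moved collagens from 9 to 8 and adipocyte genes from 4 to 6. Log2 fold changes near 0 turned for NR2F1 (-0.00287), ADAMTS20 (-0.000887) and KRT18 (0.37) with the shared numbers without a block, and for KRT18 (0.71) and BANK1 (-0.0195) without 7 libraries. The settings without ULB replicate 7 and without the 7 libraries were chosen after seeing the data. The index difference of PGR was 0.35 after quantile normalization. The cause was not tested.

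A/B switches at over 70% of samples numbered 120 and 211. A/B variables higher in ULB numbered 2775 after quantile normalization, and with an index difference over 0.5 the variables numbered 7527 and 20402. In Hi-C the labels of paired samples share only a number, and with the replicate block the variables were 1815 and 7805. For that reason the block was not used beside single bins.

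The 30 interactions with WL were 57 with DESeq2, 13 without libraries under 90% of TPM on PCGs and 13 with no filter. The 33 with NC were 66, 12 and 131, and 8 to 58 with 1 NC ULB library left out, a choice made after seeing the data. Leaving out libraries under a low total was not run, since 0 libraries lay there. The index has no depth per bin, and the 5 NC ULB libraries limit the NC values.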
